A study of Homo sapiens with 6 samples.

Results

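The genes described here encode the thioredoxin system and a set of detoxifying enzymes that are known as targets of the transcription factor NRF2. They are NQO1, SRXN1, TXNRD1, TXN, PRDX1, OSGIN1, CBR1, EPHX1, UGDH and PIR, taken by gene symbol from the deposited count table. All 10 symbols were found among its 22503 gene rows, and all 10 passed the filter on low counts, as did 14649 genes in all. Their transcripts were measured by RNA sequencing of total RNA from the established tongue squamous carcinoma line CAL-27, kept for 48 h with DHA (3 libraries) or with the solvent DMSO (3 libraries). The series concerns artemisinin derivatives, so DHA was taken to be dihydroartemisinin. The dose was not stated in the labels. The cells of both groups are the same line, with no genetic change named in the labels.

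NRF2 is normally held in the cytosol and marked for degradation by its partner KEAP1, a sensor with reactive cysteines. When oxidants or electrophiles modify KEAP1, NRF2 escapes, enters the nucleus, pairs with small MAF proteins and binds antioxidant response elements near its target genes. Among these targets, the thioredoxin system passes electrons from NADPH to oxidized proteins and peroxides, and the detoxifying enzymes turn quinones, carbonyls and epoxides into less reactive products. Artemisinins carry an endoperoxide bridge that is opened by iron or heme, which yields reactive radicals.

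The start regions of some members are shown because they hold, or lack, the letters of the antioxidant response element. RefSeq promoter windows (GRCh38.p14), each running from 250 bases before to 50 bases after an annotated transcript start, were found for 9 of the 10 genes, 12 windows in all. The core TGACNNNGC, searched on both strands, was present in 5 of these 12 windows, belonging to TXNRD1, CBR1, EPHX1 and PIR. It was present in 13.3% of all 35116 windows of the same length. Positions are counted from the annotated first base as 1, with negative numbers before it, and capitals mark the core.
TXNRD1, chr12:104215654-104215714, plus strand, core at -99 to -91: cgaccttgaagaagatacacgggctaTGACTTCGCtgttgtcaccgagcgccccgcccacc
TXNRD1, chr12:104215745-104215805, plus strand, core on the opposite strand at -8 to 1: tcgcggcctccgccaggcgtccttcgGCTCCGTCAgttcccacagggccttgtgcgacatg
TXNRD1, second start, chr12:104286904-104286964, plus strand, core on the opposite strand at -102 to -94: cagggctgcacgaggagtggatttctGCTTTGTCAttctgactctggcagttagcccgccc
CBR1, chr21:36069839-36069899, plus strand, core on the opposite strand at -159 to -151: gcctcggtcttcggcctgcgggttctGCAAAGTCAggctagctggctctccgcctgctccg
EPHX1, a downstream start, chr1:225825250-225825310, plus strand, core at -78 to -70: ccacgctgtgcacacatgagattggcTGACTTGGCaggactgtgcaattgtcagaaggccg
PIR, chrX:15493284-15493333, minus strand, core on the opposite strand at 27 to 35: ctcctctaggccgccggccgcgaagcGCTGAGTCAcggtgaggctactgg
The PIR match, read on its own strand, is TGACTCAGC, which overlaps the AP-1 motif TGANTCA and was found in 0.561% of all windows. TGANTCA itself was found in 7.71% of all windows and, besides PIR, in that of OSGIN1 among the 9 genes.

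The windows of SRXN1 and NQO1, the genes that rose most clearly, held no TGACNNNGC. They are shown whole, with the annotated first base in capitals.
SRXN1, chr20:653151-653450, minus strand: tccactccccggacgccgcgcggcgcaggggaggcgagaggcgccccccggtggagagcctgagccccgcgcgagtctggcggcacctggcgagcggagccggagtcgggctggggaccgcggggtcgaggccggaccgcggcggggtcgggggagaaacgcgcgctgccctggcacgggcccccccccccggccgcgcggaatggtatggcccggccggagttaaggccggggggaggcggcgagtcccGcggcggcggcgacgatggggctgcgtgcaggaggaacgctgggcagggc
NQO1, chr16:69726511-69726810, minus strand: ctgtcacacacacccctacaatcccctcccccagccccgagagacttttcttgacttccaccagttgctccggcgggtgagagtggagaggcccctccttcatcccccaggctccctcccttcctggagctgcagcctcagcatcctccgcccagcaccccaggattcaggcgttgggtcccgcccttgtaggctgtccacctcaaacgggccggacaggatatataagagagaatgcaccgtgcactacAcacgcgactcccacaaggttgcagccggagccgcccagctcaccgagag
The looser pattern TGANNNNGC, which contains the core, was present in 41.8% of all windows and in 8 of the 12 windows of these genes. Those 8 belong to NQO1, TXNRD1, OSGIN1, CBR1, EPHX1, UGDH and PIR, with 1 of the windows of EPHX1 among them. A missing match says only that these letters are not in this window, and a match is not a binding site.

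The DHA libraries held 35983061 to 38120267 counts over genes and the DMSO libraries 35980670 to 37403613. Levels are given as CPM, the counts of a gene relative to the TMM-scaled library total, and 3 counts corresponded to 0.0789 to 0.0830 CPM. All 8 markers of squamous keratinocytes were above 1 CPM in every library, with a summed level of 3468 to 4075 CPM in DHA and 4720 to 6206 CPM in DMSO. KRT5 and KRT17 carried most of this sum, with KRT17 at 507 to 858 CPM in DHA and at 2547 CPM in DMSO 1, 1122 CPM in DMSO 2 and 1106 CPM in DMSO 3. KRT6A went the other way and was the keratinocyte marker called by edgeR (log2 fold change 0.75, adjusted p = 0.0402). SFN was also higher in every DHA library than in any DMSO library (log2 fold change 0.41, adjusted p = 0.184 by edgeR). KRT5, KRT17, TP63 and CDH1 were lower in every DHA library than in any DMSO library. The DESeq2 Wald test called KRT17 lower (log2 fold change -1.15, adjusted p = 0.00670) and KRT6A higher (adjusted p = 0.00122). Of the markers of other cell types found in the table, COL1A1 (fibroblast), CD68 (leukocyte) and CDH5 (endothelial) alone were above 1 CPM in all 6 libraries, and PECAM1, LYZ, EMCN, DCN and COL3A1 stayed near 0. The 6 fibroblast markers summed to 9.16 to 13.2 CPM in DHA and 13.5 to 23.5 CPM in DMSO. The 4 of them that were tested had a median log2 fold change of -0.94, and edgeR called 0. The DESeq2 Wald test called COL1A2 lower (log2 fold change -1.25, adjusted p = 0.0255). CD68 was at 33.0 to 44.7 CPM in DHA and 39.1 to 39.9 CPM in DMSO, and the 4 endothelial markers summed to 15.4 to 18.6 CPM in DHA and 16.4 to 26.5 CPM in DMSO. Their part in the results was not tested. In whole-culture RNA, fewer cells of a type and less RNA per cell cannot be told apart. Among the DMSO libraries DMSO 1 stood apart, and so did DHA 2 and DHA 3 from each other. Whether each library had its own culture is not stated in the labels, so a p-value here measures the spread between these libraries, which may be technical.

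The comparison of DHA with DMSO asks which of these transcripts differ after 48 h with the compound. SRXN1 and NQO1 rose 1.83-fold and 1.82-fold, past an adjusted p of 0.05 in the quasi-likelihood test of edgeR, with p-values adjusted by Benjamini-Hochberg across the whole table of tested genes. Thus 2 of the 10 members were called higher, where 1.10% of all genes were. None was called lower, where 1.60% of all genes were, and none was lower at an unadjusted p under 0.05, where 10.7% of all genes were. The DESeq2 Wald test called 3 members higher and 0 lower, against 3.09% and 4.66% of all genes. In limma-voom these were 2 and 0 members, against 1.01% and 1.48% of all genes. In 7 of the 10 members every DHA library lay above every DMSO library, which held for 14.3% of all genes. The log2 fold change, DHA over DMSO, was above 0 in 10 of 10 members, against 50.3% of all genes, and its median was 0.48, against 0.00 over all genes. At an unadjusted p under 0.05 the count of members was 8, all higher, where 9.59% of all genes were. The members were chosen with earlier results of these data known, so these shares describe the list and carry no test.

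**Figure D1:**
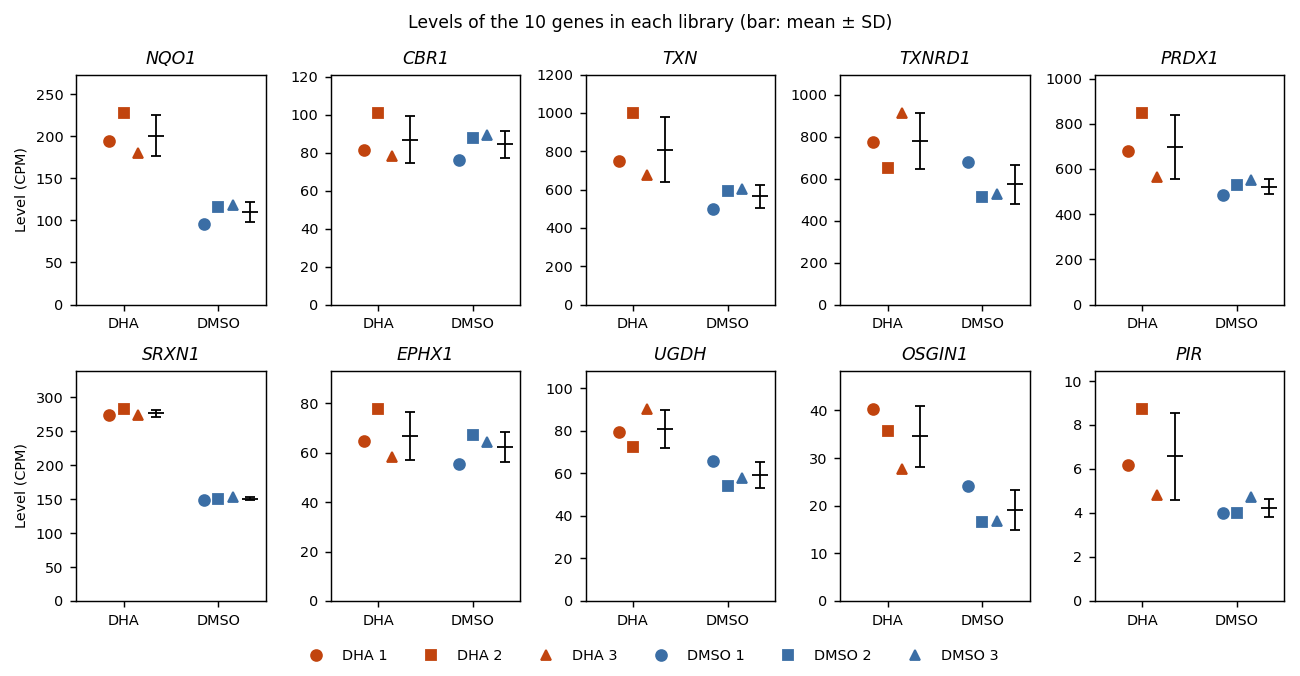
Level in CPM (y axis, from 0) of each of the 10 genes in the 3 DHA and the 3 DMSO libraries, with the mean and SD as a bar beside each group. For SRXN1 the DHA libraries sit at 273 to 283 CPM, far above the DMSO libraries at 149 to 153 CPM, while the groups of CBR1 and EPHX1 overlap.

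NQO1 encodes an NAD(P)H-dependent enzyme that reduces quinones to hydroquinones without a radical intermediate, and it lies on chromosome 16 at 69709401 to 69726560 (GRCh38.p14). It stood at 194, 228 and 180.4 CPM in DHA 1, DHA 2 and DHA 3, and at 95.7, 116 and 118 CPM in DMSO 1, DMSO 2 and DMSO 3. The lowest DHA library was thus well above the highest DMSO library. The means were 201 ± 24.4 CPM in DHA and 110.0 ± 12.4 CPM in DMSO (SD, n = 3 each), and their log2 fold change was 0.87 (SE 0.14, edgeR adjusted p = 0.0193). Leaving out 1 library at a time kept the call in 4 of 6 fits, and it was lost without DMSO 2 (adjusted p = 0.0701) and without DHA 1 (adjusted p = 0.0841 by edgeR), with log2 fold changes of 0.91 and 0.89.

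CBR1, on chromosome 21 at 36070024 to 36073164, encodes a carbonyl reductase that also acts on quinones and uses NADPH. It stood at 81.4, 101 and 78.2 CPM in the DHA libraries and at 76.2, 87.8 and 89.2 CPM in the DMSO libraries. These groups overlapped throughout, with DHA 2 highest and DMSO 1 lowest. The log2 fold change was 0.04, with 95% bounds of -0.28 and 0.36 (adjusted p = 0.892 by edgeR). A rise as large as the lower bound for NQO1, 0.55 on the log2 scale, lay outside that interval. The sign of the CBR1 value was not fixed, as it was -0.08 without DHA 2, -0.03 without DMSO 1 and -0.10 once GC content and transcript length had been corrected for, an alternative chosen after the data were seen.

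The ratio of NQO1 to CBR1 counts does not depend on library scaling. It was 2.38, 2.26 and 2.31 in the DHA libraries and 1.26, 1.32 and 1.32 in the DMSO libraries. The groups did not overlap, and the log2 ratio differed by 0.83. In an exact two-sided permutation test this gave p = 0.10, the smallest that 3 against 3 libraries allow (adjusted p = 0.20 over the 4 ratios computed, which were chosen after the levels were seen). The ratio of NQO1 to SRXN1 was 0.707, 0.806 and 0.660 in DHA and 0.641, 0.770 and 0.774 in DMSO. Those groups overlapped, with a log2 difference of -0.01 (exact permutation p = 1).

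The thioredoxin chain starts with TXNRD1, the cytosolic thioredoxin reductase, a selenoprotein that takes electrons from NADPH. The gene lies on chromosome 12 at 104215779 to 104350307 and has the 3 core matches shown above, in the windows of its 2 RefSeq starts. Its levels were 776, 649 and 913 CPM in DHA 1, DHA 2 and DHA 3, and 681, 511 and 525 CPM in DMSO 1, DMSO 2 and DMSO 3. The groups overlapped, because DMSO 1 was above DHA 2. The log2 fold change was 0.44 ± 0.17 (SE), with a 95% interval of 0.07 to 0.82 (adjusted p = 0.186 by edgeR), and it was 0.32 without DHA 3 and 0.59 without DMSO 1.

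TXN, on chromosome 9 at 110243810 to 110256507, encodes thioredoxin, the small protein that TXNRD1 reduces and that in turn reduces disulfides in other proteins. It stood at 748, 1000.2 and 676 CPM in DHA 1, DHA 2 and DHA 3, and at 497, 592 and 606 CPM in DMSO 1, DMSO 2 and DMSO 3. Every DHA library was above every DMSO library, but DHA 2 stood well above DHA 1 and DHA 3. The log2 fold change was 0.52 ± 0.17 (95% interval 0.14 to 0.89, adjusted p = 0.136 by edgeR). It was 0.33 without DHA 2 and 0.30 after the correction for GC content and length, with adjusted p = 0.282 and 0.110. The ratio of TXNRD1 to TXN counts spanned 0.649 to 1.35 in DHA and 0.864 to 1.37 in DMSO, so the groups overlapped fully (exact permutation p = 0.90).

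PRDX1, on chromosome 1 at 45511051 to 45522890, encodes a peroxiredoxin that destroys hydrogen peroxide and is recycled by thioredoxin. It stood at 681, 848 and 564 CPM in DHA 1, DHA 2 and DHA 3, and at 485, 529.6 and 549 CPM in DMSO 1, DMSO 2 and DMSO 3. DHA 3 exceeded the highest DMSO library by only a little. PRDX1 had a log2 fold change of 0.42 ± 0.16 (95% interval 0.06 to 0.78, adjusted p = 0.188 by edgeR). It was 0.25 without DHA 2 and 0.20 after the correction for GC content and length. TXN and PRDX1 have processed pseudogenes, which were not analysed here, so their counts are uncertain.

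SRXN1 encodes sulfiredoxin, which repairs peroxiredoxins that peroxide has overoxidized, and lies on chromosome 20 at 646615 to 653200. It stood at 275, 283 and 273 CPM in DHA 1, DHA 2 and DHA 3, and at 149, 151 and 153 CPM in DMSO 1, DMSO 2 and DMSO 3. Replicates lay closer together than those of any other member in relation to their mean, at 277 ± 5.0 CPM in DHA and 151 ± 1.73 CPM in DMSO (SD, n = 3 each). Its change on the log2 scale was 0.87 ± 0.11 (SE, adjusted p = 0.00950 by edgeR) and stayed between 0.86 and 0.89 with any library left out. The adjusted p nevertheless missed the threshold without DMSO 2 (0.0606) and without DHA 1 (0.0602), fits in which 0.134% and 0.0803% of all genes were called higher. The ratio of SRXN1 to PRDX1 counts was 0.403, 0.333 and 0.485 in DHA and 0.308, 0.285 and 0.278 in DMSO. DHA libraries were all above, with a log2 difference of 0.47 (exact permutation p = 0.10, the smallest possible).

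**Figure D2:**
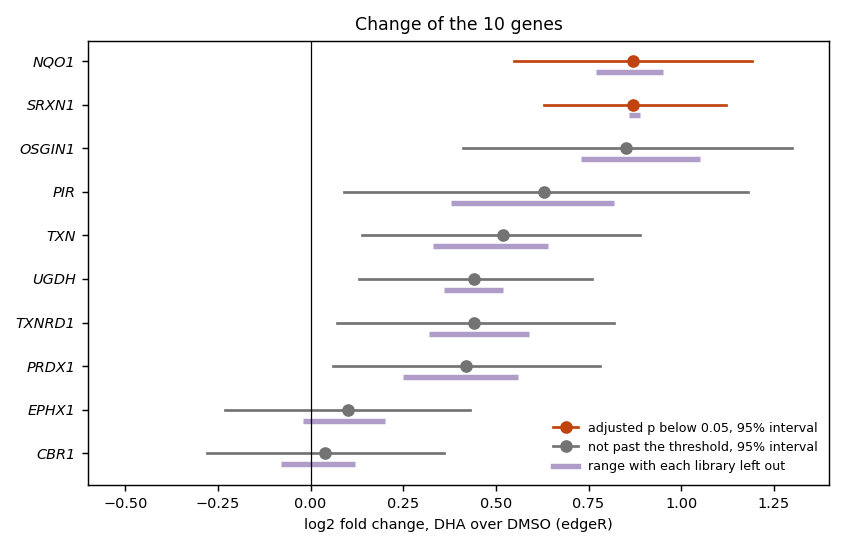
Log2 fold change of DHA over DMSO from edgeR (x axis) for each of the 10 genes, with its 95% interval and, below it, the range over the 6 fits that each left out a library. SRXN1 and NQO1 at 0.87 and OSGIN1 at 0.85 lie furthest to the right, and CBR1 at 0.04 and EPHX1 at 0.10 lie next to 0.

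EPHX1 and UGDH belong to other steps of detoxification. EPHX1, the microsomal epoxide hydrolase gene on chromosome 1 at 225810124 to 225845563, stood at 64.7, 77.6 and 58.5 CPM in the DHA libraries and at 55.6, 67.1 and 64.4 CPM in the DMSO libraries. The groups overlapped, and the log2 fold change was 0.10 (95% interval -0.23 to 0.43, adjusted p = 0.715 by edgeR). It was -0.02 without DHA 2 and -0.03 after the correction for GC content and length, so its direction was not fixed. UGDH, which encodes the enzyme that makes UDP-glucuronic acid for glucuronidation, lies on chromosome 4 at 39498755 to 39527439. It stood at 79.5, 72.3 and 90.1 CPM in DHA and at 65.9, 54.1 and 57.8 CPM in DMSO. All DHA libraries were higher, with a log2 fold change of 0.44 ± 0.14 (SE, edgeR adjusted p = 0.125), and with the correction for GC content and length UGDH passed the threshold (log2 fold change 0.47, adjusted p = 0.0419).

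OSGIN1 and PIR are NRF2 targets outside these enzyme chains. OSGIN1, a stress-induced growth inhibitor gene on chromosome 16 at 83953240 to 83966332, stood at 40.2, 35.6 and 27.7 CPM in DHA and at 24.0, 16.6 and 16.7 CPM in DMSO. The lowest DHA library, DHA 3, was close to the highest DMSO library, DMSO 1. Its log2 fold change of 0.85 ± 0.20 was close to that of NQO1, but it missed the threshold (adjusted p = 0.0564 by edgeR). It passed in 8 of 17 alternatives, among them the DESeq2 Wald test (adjusted p = 0.00302). In edgeR it passed without DMSO 1 (0.0457), without DHA 3 (0.0273), with all genes unfiltered (0.0147) and after the correction for GC content and length (0.0196). It missed in edgeR without DMSO 2 (0.190), DMSO 3 (0.152), DHA 1 (0.223) or DHA 2 (0.0982), and in limma-voom (0.0561). Its intervals and those of SRXN1 and NQO1 overlapped widely, so the order of the leading 3 is within their error.

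PIR encodes pirin, an iron-containing nuclear protein, on chromosome X at 15384799 to 15493333. It had the lowest counts of the 10 members, 233, 315 and 179 in DHA and 148, 145 and 179 in DMSO. These came to 6.19, 8.71 and 4.83 CPM in DHA and 4.0, 4.0 and 4.71 CPM in DMSO, so DHA 3 barely cleared DMSO 3. PIR had a log2 fold change of 0.63 ± 0.24 (95% interval 0.09 to 1.18, adjusted p = 0.188 by edgeR), which was 0.38 without DHA 2.

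**Figure D3:**
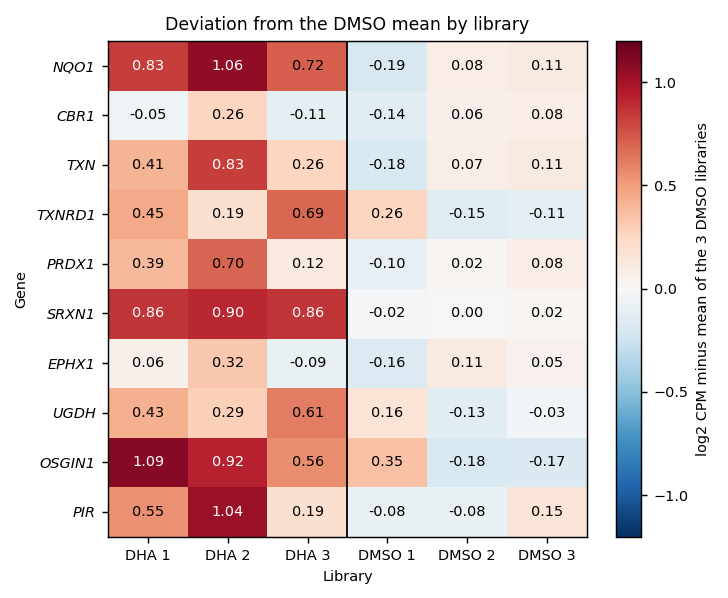
Log2 CPM of each gene (rows) in each library (columns) minus the mean of the 3 DMSO libraries, with the value in each cell. NQO1 and SRXN1 are raised by 0.72 to 1.06 in all DHA libraries, whereas TXN, PRDX1 and PIR are raised most in DHA 2 and TXNRD1 and UGDH most in DHA 3.

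Per length of annotated exons, the members spanned the range from abundant to scarce transcripts. TXN stood at 929.7 ± 196 CPM per kb in DHA and 650.0 ± 67.9 CPM per kb in DMSO, and PRDX1 at 557 ± 114 CPM per kb in DHA and 416 ± 26.3 CPM per kb in DMSO (SD, n = 3 each). TXNRD1 followed with 154 ± 26.2 CPM per kb in DHA and 113 ± 18.7 CPM per kb in DMSO, and SRXN1 with 103 ± 1.85 CPM per kb in DHA and 56.0 ± 0.641 CPM per kb in DMSO. NQO1 had 64.3 ± 7.80 CPM per kb in DHA and 35.2 ± 3.98 CPM per kb in DMSO, while CBR1 had 35.4 ± 5.0 CPM per kb in DHA and 34.5 ± 2.91 CPM per kb in DMSO. EPHX1 had 32.5 ± 4.75 CPM per kb in DHA and 30.3 ± 2.92 CPM per kb in DMSO. UGDH, OSGIN1 and PIR had 23.8 ± 2.64, 12.7 ± 2.32 and 4.27 ± 1.28 CPM per kb in DHA, and 17.5 ± 1.78, 7.02 ± 1.57 and 2.75 ± 0.266 CPM per kb in DMSO. The order of the 10 genes by mean was the same in DHA and in DMSO. Between neighbors in that order, CBR1 and EPHX1 lay within their SDs of each other in DHA, and NQO1, CBR1 and EPHX1 did so in DMSO.

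Within the DHA group the members did not follow one order. DHA 2 was the highest DHA library for 7 members, namely NQO1, SRXN1, TXN, PRDX1, CBR1, EPHX1 and PIR, and the lowest for TXNRD1 and UGDH. DHA 3 was the reverse, highest for TXNRD1 and UGDH and lowest for the other 8. Over all genes, the third with the shortest transcripts (longest transcript up to 2690 bases) lay 0.18 above the DHA mean in DHA 2 and 0.18 below it in DHA 3, as medians of log2 CPM. The third with the longest transcripts (4630 bases or more) lay 0.16 below it in DHA 2 and 0.17 above it in DHA 3. A trend of like size went with GC content. The third lowest in GC lay 0.18 below the DHA mean in DHA 2 and 0.19 above it in DHA 3. The third highest in GC lay 0.14 above it in DHA 2 and 0.16 below it in DHA 3. TXN and PRDX1 have longest transcripts of 869 and 1234 bases, and UGDH and TXNRD1 of 3216 and 4277 bases, so no member falls in the longest class. GC content was 40.8% in UGDH, 44.8% in TXNRD1, 42.8% in TXN and 51.4% in PRDX1. The parts of the length trend and of the GC trend in the spread of the members were not tested or told apart. With GC content and length corrected for, NQO1 and SRXN1 had log2 fold changes of 0.83 and 0.84. In that fit 4 members (NQO1, SRXN1, OSGIN1 and UGDH) were called higher, where 3.90% of all genes were.

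**Figure D4:**
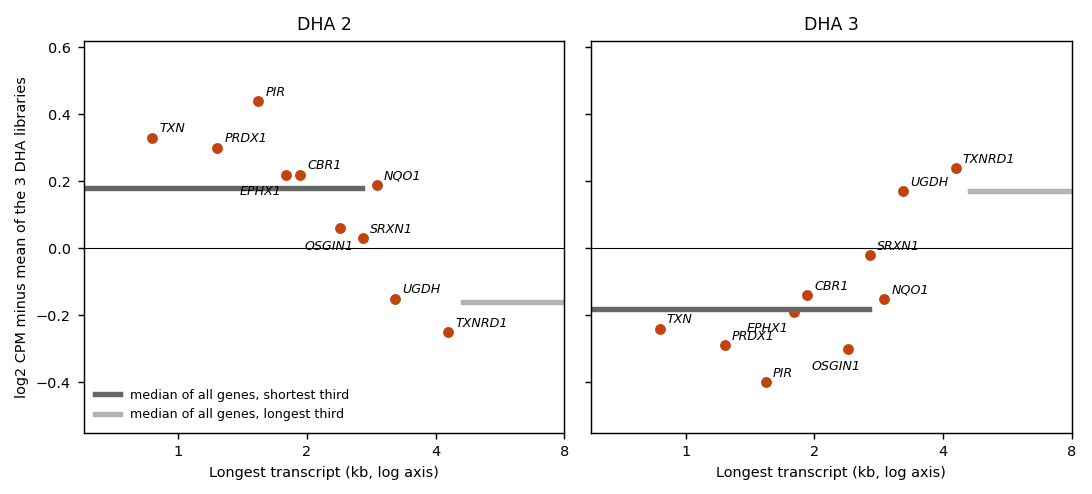
Log2 CPM minus the mean of the 3 DHA libraries (y axis) against the length of the longest annotated transcript (x axis, kb, log axis) for the 10 genes in DHA 2 and DHA 3, with the medians of the shortest and of the longest transcript class of all genes as bars. TXN and PRDX1 are high in DHA 2 and low in DHA 3, TXNRD1 and UGDH are the opposite, and SRXN1 lies within 0.03 of 0 in both. The trend with GC content in these libraries is not drawn.

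Without both DMSO 1 and DHA 3, an alternative chosen after the data were seen, 8 of the 10 members were called higher and 0 lower. CBR1 and EPHX1 were the exceptions. In that fit 6.84% of all genes were called higher and 7.79% lower, so calls were more frequent throughout. Of the 8, OSGIN1 changed most, with a log2 fold change of 1.19 (edgeR adjusted p = 0.00343). The log2 fold changes of TXN, PRDX1, TXNRD1 and UGDH were 0.55, 0.51, 0.46 and 0.45. For OSGIN1, DHA 3 was the lowest DHA library and DMSO 1 the highest DMSO library, so leaving both out widened its difference by construction. DHA 3 was also the lowest DHA library for NQO1, SRXN1, TXN, PRDX1 and PIR. The fit, with fewer libraries in each group, is thus no separate test of these genes.

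Other members of the thioredoxin family gave no call. Of 22 tested genes, 0 were called in edgeR and in limma-voom, 2 higher in the DESeq2 Wald test, and 7 were higher at an unadjusted p under 0.05. Over all genes, 1.10%, 1.01%, 3.09% and 9.59% were higher by these measures, in that order. None of the 22 was lower, where 1.60%, 1.48%, 4.66% and 10.7% of all genes were. Their median log2 fold change was 0.26. The mitochondrial partners TXN2 and TXNRD2 had log2 fold changes of 0.36 and 0.19 (adjusted p = 0.261 and 0.565 by edgeR), and TXNRD3, a testis-linked reductase, had 0.07 (adjusted p = 0.816). The other peroxiredoxins had 0.22 (PRDX2), -0.05 (PRDX3), 0.18 (PRDX4), 0.22 (PRDX5) and 0.29 (PRDX6), with adjusted p from 0.284 to 0.862 by edgeR. TXNIP, which binds and inhibits thioredoxin, was at 562 ± 82.3 CPM in DHA and 773 ± 374 CPM in DMSO (adjusted p = 0.374 by edgeR), with DMSO 1 alone at 1204 CPM. Nearest to the threshold were MSRA, a methionine sulfoxide reductase, and GLRX2, a glutaredoxin, with log2 fold changes of 0.65 and 0.75 (adjusted p = 0.0635 and 0.0644), both named after their values were seen and both called by the DESeq2 Wald test.

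Because TXNRD1 is a selenoprotein, the genes for selenocysteine synthesis were read beside it. Of 7 tested, 1 was called higher and 0 lower by edgeR, against 1.10% and 1.60% of all genes, with a median log2 fold change of 0.23. DESeq2 and limma-voom each called 1 higher (3.09% and 1.01% of all genes). At an unadjusted p under 0.05, 2 were higher (9.59% of all genes). By these measures 0 were lower, where 4.66%, 1.48% and 10.7% of all genes were. SEPHS2, which makes the selenium donor, stood at 63.3 ± 4.94 CPM in DHA and 40.4 ± 4.42 CPM in DMSO (log2 fold change 0.65 ± 0.14, adjusted p = 0.0416 by edgeR). Its call held without DHA 3 and was lost without DMSO 1 (adjusted p = 0.0908), DMSO 2 (0.122), DMSO 3 (0.0996), DHA 1 (0.146) or DHA 2 (0.0841), and also with upper-quartile scaling (0.0511) and unscaled totals (0.0529).

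Other quinone and carbonyl reductases, aldo-keto reductases left out, gave 0 calls in 19 tests by each of edgeR, DESeq2 and limma-voom. Of all genes, these called 1.10%, 3.09% and 1.01% higher and 1.60%, 4.66% and 1.48% lower. At an unadjusted p under 0.05, 2 reductases were higher and 1 lower, where 9.59% and 10.7% of all genes were, and their median was -0.02. NQO2, the paralog of NQO1, had a log2 fold change of 0.37 (95% interval 0.02 to 0.72, adjusted p = 0.229 by edgeR). CBR3, the paralog of CBR1, had 0.60 (95% interval 0.13 to 1.08, adjusted p = 0.162), from 11.4 ± 3.05 CPM in DHA and 7.48 ± 0.590 CPM in DMSO. Neighbors of EPHX1 and UGDH in epoxide and glucuronide metabolism numbered 8, with a median of -0.09. Of these, edgeR, DESeq2 and limma-voom each called 0, and 1 was lower and 0 higher at an unadjusted p under 0.05. Over all genes, 10.7% were lower and 9.59% higher at that unadjusted p. EPHX2 and UGP2, which makes the UDP-glucose that UGDH oxidizes, had log2 fold changes of -0.25 and -0.13 (adjusted p = 0.515 and 0.628 by edgeR).

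The list of NRF2 regulators held 8 genes, with a median of 0.29. It holds NFE2L2 itself, NFE2L1 and the small MAF genes MAFF, MAFG and MAFK beside KEAP1, CUL3 and BACH1. Not all of the 8 thus act on NRF2. Of these, edgeR and limma-voom called 0, and DESeq2 called MAFG and NFE2L1 higher, named after their values were seen. Over all genes, edgeR called 1.10% higher, limma-voom 1.01% and DESeq2 3.09%. At an unadjusted p under 0.05, 3 of the 8 were higher and 0 lower, where 9.59% and 10.7% of all genes were. NFE2L2, which encodes NRF2, was at 130.5 ± 19.0 CPM in DHA and 116 ± 5.02 CPM in DMSO (adjusted p = 0.482 by edgeR), and KEAP1 at 105 ± 14.9 CPM in DHA and 82.4 ± 2.87 CPM in DMSO (adjusted p = 0.192). The repressor BACH1 was at 65.8 ± 21.8 CPM in DHA and 97.6 ± 40.8 CPM in DMSO (adjusted p = 0.321 by edgeR), with DMSO 1 at 145 CPM. Of 25 other NRF2 targets tested, 6 were called higher and 0 lower by edgeR, against 1.10% and 1.60% of all genes. Their median was 0.40, and 17 of the 25 were above 0. DESeq2 called 9 higher, limma-voom 5, and 12 were higher at an unadjusted p under 0.05, against 3.09%, 1.01% and 9.59% of all genes. None was lower by these measures, where 4.66%, 1.48% and 10.7% of all genes were. In 11 every DHA library lay above every DMSO library (14.3% of all genes). In 3 every one lay below, which held for 1981 of all 14649 genes tested. Without DMSO 1 and DHA 3, 11 were called higher and 1 lower, where 6.84% and 7.79% of all genes were. AKR1C1, AKR1C2 and SQSTM1 held their calls with any library left out, while FTH1 and GPX2 held theirs only without DHA 3. GPX2, a glutathione peroxidase of epithelia, was low at 4.71 ± 1.12 CPM in DHA and 1.81 ± 0.396 CPM in DMSO (log2 fold change 1.38 ± 0.27, edgeR adjusted p = 0.0320, and 0.131 without DHA 1). GCLM and HMOX1, other common NRF2 targets, had log2 fold changes of 0.35 and -0.25 (adjusted p = 0.327 and 0.692 by edgeR). HMOX1 was at 15.01, 13.0 and 11.7 CPM in DHA and at 26.3, 10.7 and 10.1 CPM in DMSO. Its sign turned on DMSO 1, without which it stood at 0.34 on the log2 scale (edgeR adjusted p = 0.337), and that of GCLM was 0.11 without DHA 3 (adjusted p = 0.630).

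**Figure D5:**
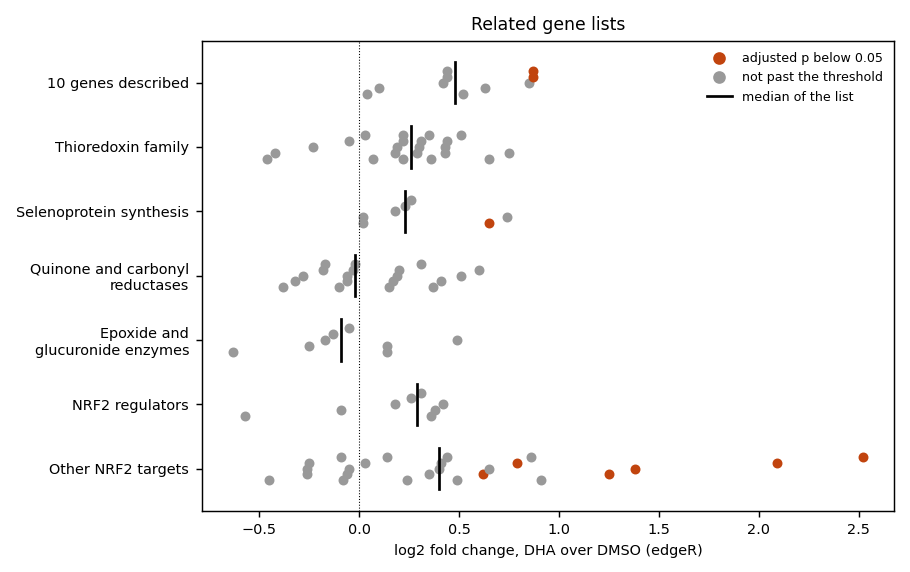
Log2 fold change of DHA over DMSO (x axis) for the 10 genes described and for the tested genes of 6 related lists (rows), with the median of each list as a vertical bar. Called genes are coloured: 2 of the 10 members, 1 of 7 genes of selenoprotein synthesis, 6 of 25 other NRF2 targets and 0 in the other lists. All of these were called higher, where 1.10% of all genes were.

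In the pathway terms of the deposited table, 6 members (CBR1, NQO1, PRDX1, SRXN1, TXN and TXNRD1) carried the WikiPathways term NRF2 pathway, which 115 genes of the table carried. Reactome's term for antioxidant and detoxifying enzymes under NFE2L2 was carried by 15 genes, among them NQO1, PRDX1, SRXN1 and TXNRD1. EPHX1, OSGIN1, UGDH and PIR were in neither. EPHX1 did carry, with NQO1 and SRXN1, the WikiPathways term for NRF2 survival signaling induced by photodynamic therapy, which 22 genes carried. Among 10631 other genes with a mean of at least 5 CPM, those with the profile closest to the median profile of the members over the 6 libraries were DTD1, GPS2, LINC01980, CZ1P-ASNS and SMIM20. The root mean square difference was 0.0432 to 0.0492 on the log2 scale, against 0.103 for PRDX1, the closest member, and 0.294 for TXNRD1, the furthest. The named genes were picked by this same difference from 10631, so their smaller values follow from the search.

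RefSeq places other genes over parts of some members. Strand use in counting was not stated in the labels, so their reads cannot be fully told apart. These overlapping genes were far lower than the members except for TMEM63A over EPHX1, with 31.4 CPM in DHA and 39.7 CPM in DMSO as means. MMACHC over PRDX1 had 13.5 CPM in DHA and 11.2 CPM in DMSO, and NECAB2 over OSGIN1 had 2.52 CPM in DHA and 1.36 CPM in DMSO. The remaining ones, over SRXN1, TXNRD1, CBR1, UGDH and PIR, had 0.0272 to 2.60 CPM in DHA and 0.0355 to 2.48 CPM in DMSO.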

How the data were processed

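Per the labels, total RNA of 6 samples of CAL-27 cells was sequenced, 3 per group. The authors deposited raw read counts of genes as whole numbers, with a column for every library. The submitters' processing notes name fastp, HISAT2, HTSeq, R (version 3.2.0) and GRCh38. No settings, annotation release or strand use were stated in the labels. Columns were matched to samples by their names in the labels.

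Genes were filtered with filterByExpr (minimum count 10) and tested in edgeR 4.0.16 (R 4.3.3) by the quasi-likelihood F test, two-sided, with TMM scaling and treatment as the factor. The SE was computed as the absolute log2 fold change over the root of F. P-values were adjusted over all 14649 genes, with a threshold of 0.05. The fit was tested on simulated data. Profiles and deviations used log2 CPM with a prior count of 2. Named genes were the members, called genes of 6 related lists, preset relatives and the 5 closest profiles. Some list members are not named here. Alternatives used DESeq2 1.42.0 and limma 3.58.1, other scalings and filters, a replicate block and libraries left out. Transcript lengths and GC content were taken from GENCODE 29 for 89.7% of the genes tested, all members included, and the correction used natural splines with 5 degrees of freedom. The members and lists were chosen with earlier results of these data known.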

Additional observations from a re-analysis of the deposited data

How the results depend on the processing

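The count of members called higher, 2 by edgeR, was 2 or 3 under the other scalings, filters and tests and 0 to 3 with each library left out (0 without DMSO 2 and without DHA 1). It was 4 after the correction for GC content and length, 5 with that correction and the replicate block (8.64% of all genes), and 8 without DMSO 1 and DHA 3. No alternative called a member lower, where 0.0268% to 7.79% of all genes were. Of the 10 members' values under 17 alternatives each, 142 kept their direction and side of the threshold, 17 passed it newly, 4 lost it and 7 changed sign, none of these 7 with a call. The sign changes were those of CBR1, at -0.03 without DMSO 1, -0.08 without DHA 2, -0.10 with the correction and -0.09 with correction and block, and of EPHX1, at -0.02 without DHA 2 and -0.03 in both corrected fits. With each library left out CBR1 ranged from -0.08 to 0.12 and EPHX1 from -0.02 to 0.20.

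All genes called higher, 161, and lower, 234, were 244 and 405 with no filter, 95 higher above a mean of 5 CPM, 453 and 682 in DESeq2, 513 and 519 with the correction, 1009 and 1150 without DMSO 1 and DHA 3, and 1135 and 994 with correction and block. With each library left out they ranged from 12 to 341 and from 4 to 448. Related genes called higher numbered 7 by edgeR, where 1.10% of all genes were. They were 4 with upper-quartile scaling (0.860% of all genes) and 4 above a mean of 5 CPM (0.893%). DESeq2 called 14 (3.09%), and the corrected fit 14 (3.90%). Without DMSO 1 and DHA 3 they were 24 (6.84%), with 4 lower (7.79%). With correction and block they were 22 (8.64%), with 1 lower (7.57%). Each library left out in turn gave 3 to 12 (0.0803% to 2.28%). GPX2 was not tested above a mean of 5 CPM. The cause was not tested.

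Whether replicate numbers mark pairs was not settled by these data. Deviations from the group means correlated at 0.26, 0.12 and -0.04 for same-numbered libraries and at -0.26 to 0.12 for differently numbered ones. DHA 3 correlated best with DMSO 2. With the replicate block 496 genes (3.39%) were called higher and 776 (5.30%) lower. In that fit 4 members were called higher (NQO1, SRXN1, TXN and OSGIN1), and 11 related genes higher and 1 lower. PIR, with 145 to 315 counts, is the member most limited by depth.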
